A study of Mus musculus with 24 samples.

Results

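Astrocytes keep the brain's neurons supplied and its extracellular fluid stable, and 7 genes that identify them or carry out this work were followed here across a mouse experiment on glioma chemoradiotherapy. The genes were Sox9, Slc1a3, Gja1, Kcnj10, Aldh1l1, S100b and Agt. They were picked by name, with earlier results of these data known. Each had 1 probe among the 757 of the panel, of which 703 carry a gene symbol. RNA of 24 brains was hybridised to barcoded probes without amplification, and the values below are log2 normalized counts unless another scale is named. A difference of 1 on this scale is a doubling.

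By the labels all mice were male C57BL/6J, 27 weeks old and perfused before the brain was taken, while the study as a whole used both sexes. In the tumor-bearing groups CT2A cells, a mouse astrocytoma line carrying luciferase according to the study's methods, were injected into the brain. The 6 groups other than Control + Veh received RT-TMZ, which is cranial irradiation in 3 fractions of 9 Gy by the labels (the methods give a slightly lower dose) with temozolomide, an alkylating drug, at 25 mg/kg during and 66.7 mg/kg after irradiation. The groups were CT2A + RT-TMZ + UCI-191 EV with 3 mice, CT2A + RT-TMZ + Shef6 EV with 3, CT2A + RT-TMZ + Veh with 4, RT-TMZ + UCI-191 EV with 3, RT-TMZ + Shef6 EV with 3, RT-TMZ + Veh with 4 and Control + Veh with 4. EVs were extracellular vesicles shed by human neural stem cells of the UCI-191 or the Shef6 line, each a single line, injected into a vein behind the eye, and vehicle was buffered saline. Every tumor-bearing mouse analysed here had RT-TMZ, so a tumor without treatment was not analysed. The labels give the tissue as brain, while the methods name prefrontal cortex and hippocampus and a figure legend hippocampus alone, so the region is not settled.

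Sox9 is a transcription factor that marks the nuclei of adult astrocytes. Slc1a3 (GLAST) takes glutamate back from synapses, Gja1 (connexin 43) builds the gap junctions that join astrocytes into a network, and Kcnj10 (Kir4.1) is the channel through which glia clear potassium. Aldh1l1 is a folate enzyme used as a pan-astrocyte marker, S100b is a calcium-binding protein that glia also secrete, and Agt is angiotensinogen, the precursor of the angiotensins, which astrocytes make in the brain. Kcnj10 and S100b are also made by cells of the oligodendrocyte lineage. CT2A cells are themselves of astrocytic origin, so RNA of a tumor could carry some of these transcripts. In bulk tissue, fewer astrocytes and less RNA per astrocyte cannot be told apart.

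Some facts of the whole series bear on every value. The scaling factor that the deposited values carry, recovered from the regular grid of their low values, averaged 1.37 in CT2A + RT-TMZ + Veh and lay between 0.837 and 1.18 in single samples of the other 6 groups. The total counts it implies were 862230 to 936464 in CT2A + RT-TMZ + Veh and 1008273 to 1476171 elsewhere, so counts in that group had been multiplied up more than in the rest. Replicates of a group correlated with r between 0.965 and 0.996 over all probes. All 7 genes were above the background of 20 normalized counts in all 24 samples. The lowest value, for Agt, was 91.1 normalized counts, and the counting error there was 10.8%, against at most 4.09% for the lowest value of each of the other 6 genes.

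Upstream sequence was read for 6 of the 7 genes from RefSeq (GRCm38.p6), Sox9 not being among the matches. The windows of Slc1a3 and Gja1 are shown because these genes were low together with the transcription factor Sox9 in the results that follow. Each holds the 250 bases before the RefSeq start, 5′ to 3′ on the gene's strand, and capitals mark ACAAT or its other-strand form ATTGT, the core that SOX proteins bind.
Slc1a3: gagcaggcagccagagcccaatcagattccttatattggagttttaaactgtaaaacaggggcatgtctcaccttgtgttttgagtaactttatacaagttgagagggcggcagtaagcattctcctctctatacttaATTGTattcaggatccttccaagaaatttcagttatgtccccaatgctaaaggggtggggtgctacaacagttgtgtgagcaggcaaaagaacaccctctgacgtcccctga
Gja1: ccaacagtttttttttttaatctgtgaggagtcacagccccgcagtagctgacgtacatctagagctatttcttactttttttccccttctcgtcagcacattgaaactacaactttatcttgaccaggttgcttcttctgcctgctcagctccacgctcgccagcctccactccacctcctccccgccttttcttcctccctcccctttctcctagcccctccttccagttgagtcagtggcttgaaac
The Slc1a3 window lies at chr15:8710808-8711057 on the minus strand and holds 1 match, ATTGT, which begins 112 bases before the start. The Gja1 window, chr10:56377050-56377299 on the plus strand, holds no match, nor do those of Kcnj10, Aldh1l1, S100b and Agt. The core occurs in 27.7% of all 32851 promoter windows of this length, so 1 of 6 is a description and points to no site. A half-site of the glial NFI factors, TTGGC or GCCAA, was found in the windows of S100b, Kcnj10 and Agt, 3 of 6, and in 41.5% of all windows. It was absent from the letters of the Slc1a3, Gja1 and Aldh1l1 windows. The motifs were chosen after the expression values were known.

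**Figure D1:**
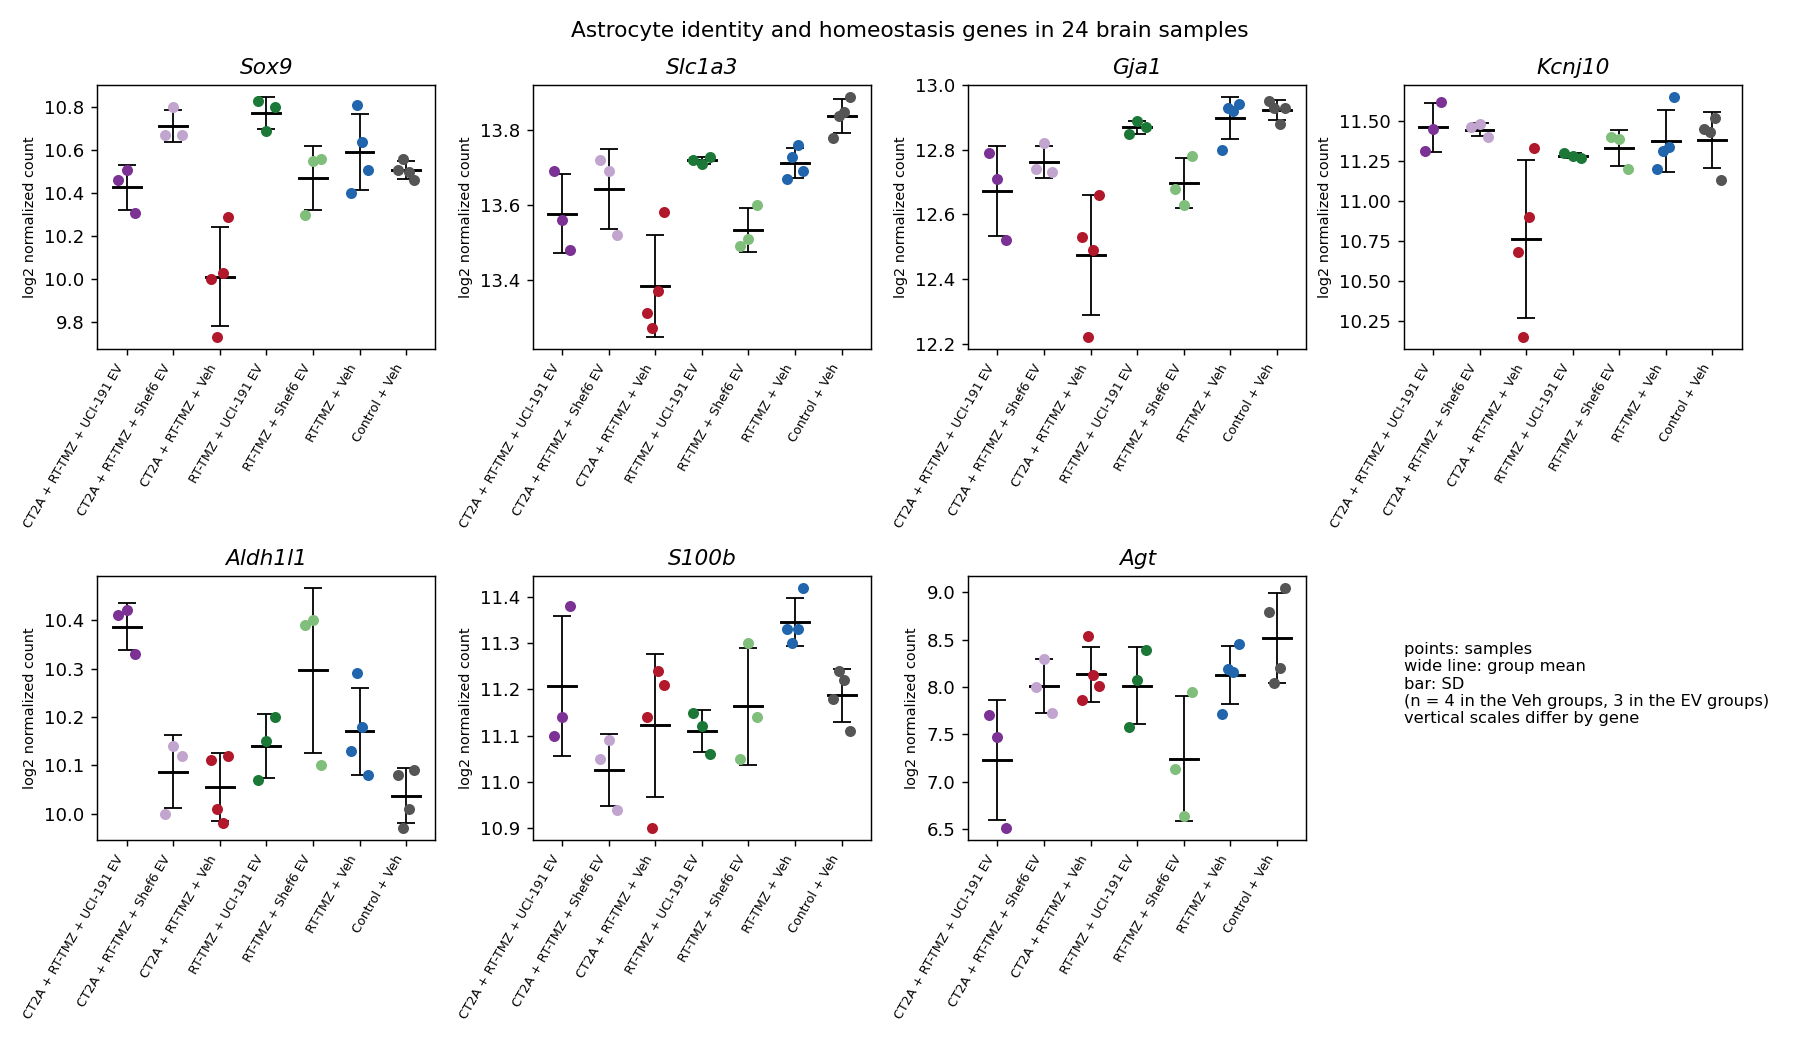
Values of the 7 genes in all 24 samples, 1 panel per gene, with the log2 normalized count on the vertical axis and the 7 groups on the horizontal axis. Points are samples, wide lines group means and bars 1 SD. The 4 CT2A + RT-TMZ + Veh samples are the 4 lowest of all for Sox9 (9.73 to 10.29), and the 4 Control + Veh samples are the 4 highest for Slc1a3 (13.78 to 13.89).

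All 7 genes differed among the 7 groups by limma's moderated F test (adjusted p at most 0.0481). Over the whole panel 363 of 757 probes, or 48%, did so too. The call was weakest for S100b (adjusted p = 0.0481) and was lost for it in most fits that left out 1 sample. S100b also lost it with quantile normalization (adjusted p = 0.189) and without the mean trend (0.0728). Slc1a3 lost its call with median centring (adjusted p = 0.0578). With the replicate number as a block, S100b and Agt lost theirs (adjusted p up to 0.0986). Kcnj10 lost its call without CT2A + RT-TMZ + Veh replicate 1 (largest adjusted p of the 7 genes 0.0681) or replicate 2 (0.0525). The span between the highest and the lowest group mean was 1.29 for Agt, 0.76 for Sox9, 0.70 for Kcnj10, 0.46 for Slc1a3, 0.45 for Gja1, 0.35 for Aldh1l1 and 0.32 for S100b. Over the 13 comparisons of 2 groups, Slc1a3 fell in 6 and Gja1 in 5, and neither rose in any. Sox9 rose in 3 and fell in 2, Aldh1l1 rose in 2, S100b rose in 1, Agt fell in 1, and Kcnj10 passed in none. Many of these comparisons share samples.

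Sox9 was low in the tumor-bearing mice given vehicle and higher in those given Shef6 EVs, though highest on average in RT-TMZ + UCI-191 EV (10.77). Its values were 10.46, 10.51 and 10.31 in CT2A + RT-TMZ + UCI-191 EV, 10.67, 10.80 and 10.67 in CT2A + RT-TMZ + Shef6 EV, and 10, 9.73, 10.03 and 10.29 in CT2A + RT-TMZ + Veh. Without a tumor they were 10.83, 10.69 and 10.80 in RT-TMZ + UCI-191 EV, 10.30, 10.55 and 10.56 in RT-TMZ + Shef6 EV, and 10.40, 10.81, 10.64 and 10.51 in RT-TMZ + Veh. Control + Veh gave 10.51, 10.56, 10.50 and 10.46. The CT2A + RT-TMZ + Veh samples lay below every sample of the other 6 groups, though the highest of them missed the next sample by little. Sox9 averaged 10.01 ± 0.23 (SD, n = 4) in CT2A + RT-TMZ + Veh and 10.59 ± 0.18 (n = 4) in RT-TMZ + Veh, a log2 difference of −0.58 (standard error 0.13, adjusted p = 0.0393). Against Control + Veh (10.51 ± 0.04, n = 4) the difference was −0.49 (standard error 0.11, adjusted p = 0.0192).

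Within the tumor-bearing mice, Sox9 averaged 10.71 ± 0.08 (SD, n = 3) in CT2A + RT-TMZ + Shef6 EV, 0.70 above CT2A + RT-TMZ + Veh (standard error 0.13, adjusted p = 0.0282), which is 1.63 times as much. With median centring the difference was 0.42 (adjusted p = 0.0635), and with the factor divided out 1.06 (adjusted p = 0.0068). It was the 1 gene of the 7 that passed this test, where 5.02% of all probes did. In CT2A + RT-TMZ + UCI-191 EV it averaged 10.43 ± 0.10 (n = 3), 0.41 above vehicle (95% interval 0.09 to 0.73, adjusted p = 0.124), and none of its 3 values overlapped the vehicle group. The direct difference of CT2A + RT-TMZ + UCI-191 EV minus CT2A + RT-TMZ + Shef6 EV was −0.29 (95% interval −0.46 to −0.12, adjusted p = 0.0655). Against Control + Veh, Sox9 rose by 0.27 in RT-TMZ + UCI-191 EV (adjusted p = 0.0048) and by 0.21 in CT2A + RT-TMZ + Shef6 EV (adjusted p = 0.0238). With the scaling factor divided out, the second of these turned to −0.05 (adjusted p = 0.706). The rise in RT-TMZ + UCI-191 EV was kept in all 7 fits that left out 1 sample. It was 0.14 with median centring (adjusted p = 0.0470), and its call was lost with all groups in 1 fit (adjusted p = 0.109) and by the methods' t-test (0.0749). The rise in CT2A + RT-TMZ + Shef6 EV over vehicle was lost in 5 of 7, those without CT2A + RT-TMZ + Veh replicate 1 or 3 or without any 1 of the 3 EV samples (adjusted p 0.0714 to 0.143), while the difference stayed between 0.61 and 0.79. The fall in CT2A + RT-TMZ + Veh was lost in 5 of 8 against RT-TMZ + Veh, without replicates 2, 3 or 4 of RT-TMZ + Veh or 1 or 3 of CT2A + RT-TMZ + Veh (adjusted p 0.0811 to 0.122). Against Control + Veh it was lost in 4 of 8, without replicates 1, 2 or 3 of Control + Veh or replicate 3 of CT2A + RT-TMZ + Veh (adjusted p 0.0521 to 0.0606).

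Slc1a3, the glutamate transporter, was highest in untreated mice and lower in every treated group. It measured 13.69, 13.56 and 13.48 in CT2A + RT-TMZ + UCI-191 EV, 13.72, 13.69 and 13.52 in CT2A + RT-TMZ + Shef6 EV, and 13.31, 13.27, 13.37 and 13.58 in CT2A + RT-TMZ + Veh. In the tumor-free mice it measured 13.72, 13.71 and 13.73 with UCI-191 EV, 13.49, 13.51 and 13.60 with Shef6 EV, and 13.67, 13.73, 13.76 and 13.69 with vehicle after RT-TMZ. The Control + Veh samples gave 13.78, 13.84, 13.85 and 13.89, none of which overlapped any other group. The largest fall was that of CT2A + RT-TMZ + Veh (13.38 ± 0.14, SD, n = 4) against Control + Veh (13.84 ± 0.05, n = 4), at −0.46 (standard error 0.08, adjusted p = 0.0089), and it kept its call in all 8 fits without 1 sample. The group was also 0.33 below RT-TMZ + Veh (standard error 0.08, adjusted p = 0.0391), a call lost in 6 of 8 such fits (adjusted p 0.0529 to 0.122) and kept only without CT2A + RT-TMZ + Veh replicate 2 or 4.

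The other falls of Slc1a3 against Control + Veh were smaller. They were −0.31 in RT-TMZ + Shef6 EV (adjusted p = 0.0173), −0.26 in CT2A + RT-TMZ + UCI-191 EV (adjusted p = 0.0283), −0.20 in CT2A + RT-TMZ + Shef6 EV (adjusted p = 0.0499) and −0.13 in RT-TMZ + Veh (adjusted p = 0.0499). RT-TMZ + UCI-191 EV, at −0.12, had an adjusted p of 0.0513. The call in RT-TMZ + Veh was lost in all 8 fits without 1 sample (adjusted p 0.0624 to 0.125). That in CT2A + RT-TMZ + Shef6 EV was lost in 6 of 7 (adjusted p 0.0715 to 0.124), all but the fit without its replicate 1. In CT2A + RT-TMZ + UCI-191 EV the call was lost without Control + Veh replicate 1, 2 or 3 or its own replicate 2 (adjusted p 0.0558 to 0.0949), and in RT-TMZ + Shef6 EV without Control + Veh replicate 1 or 3 or its own replicate 2 (adjusted p 0.0574 to 0.087).

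Gja1, the gap junction protein, followed a similar course. Its values were 12.79, 12.71 and 12.52 in CT2A + RT-TMZ + UCI-191 EV, 12.74, 12.82 and 12.73 in CT2A + RT-TMZ + Shef6 EV, and 12.53, 12.22, 12.49 and 12.66 in CT2A + RT-TMZ + Veh. RT-TMZ + UCI-191 EV gave 12.85, 12.89 and 12.87, RT-TMZ + Shef6 EV 12.68, 12.63 and 12.78, and RT-TMZ + Veh 12.80, 12.93, 12.92 and 12.94. Control + Veh gave 12.95, 12.93, 12.88 and 12.93. The tumor-bearing vehicle samples all lay below both tumor-free vehicle groups and overlapped CT2A + RT-TMZ + UCI-191 EV. Gja1 averaged 12.47 ± 0.18 (SD, n = 4) in CT2A + RT-TMZ + Veh, which was −0.42 relative to RT-TMZ + Veh (12.90 ± 0.07, n = 4, standard error 0.09, adjusted p = 0.0391) and −0.45 relative to Control + Veh (12.92 ± 0.03, n = 4, standard error 0.09, adjusted p = 0.0140). Against Control + Veh the CT2A + RT-TMZ + UCI-191 EV group also fell by 0.25 (adjusted p = 0.0454), and Gja1 fell by 0.23 in RT-TMZ + Shef6 EV (adjusted p = 0.0445) and by 0.16 in CT2A + RT-TMZ + Shef6 EV (adjusted p = 0.0305). RT-TMZ + Veh itself differed from Control + Veh by only −0.03 (95% interval −0.12 to 0.07).

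The fall of Gja1 in CT2A + RT-TMZ + Veh against Control + Veh was lost in 1 of 8 fits, that without Control + Veh replicate 1 (−0.44, adjusted p = 0.0525). Against RT-TMZ + Veh it was lost in 5 of 8, without replicates 2, 3 or 4 of RT-TMZ + Veh or 1 or 3 of CT2A + RT-TMZ + Veh (adjusted p 0.0702 to 0.122). The call in CT2A + RT-TMZ + UCI-191 EV was lost in 5 of 7 fits, without any 1 of the 4 Control + Veh samples or its own replicate 2 (adjusted p 0.068 to 0.123). In RT-TMZ + Shef6 EV it was lost in all but the fit without its own replicate 3 (adjusted p 0.0838 to 0.197). In CT2A + RT-TMZ + Shef6 EV it was lost without Control + Veh replicate 1 or 3 or its own replicate 1 or 3 (adjusted p 0.0546 to 0.095).

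Kcnj10, the potassium channel, passed in no comparison, although the tumor-bearing vehicle group stood lowest. Its values were 11.31, 11.45 and 11.62 in CT2A + RT-TMZ + UCI-191 EV, 11.46, 11.48 and 11.40 in CT2A + RT-TMZ + Shef6 EV, and 10.68, 10.15, 10.90 and 11.33 in CT2A + RT-TMZ + Veh. Without tumor it measured 11.30, 11.28 and 11.27 in RT-TMZ + UCI-191 EV, 11.40, 11.39 and 11.20 in RT-TMZ + Shef6 EV, and 11.20, 11.31, 11.34 and 11.65 in RT-TMZ + Veh. Control + Veh gave 11.45, 11.43, 11.52 and 11.13. Within CT2A + RT-TMZ + Veh 3 samples lay below all other 20 samples and the last, replicate 4, lay among them, so the SD of that group was 0.49 against 0.19 or less elsewhere. The difference of CT2A + RT-TMZ + Veh was −0.61 against RT-TMZ + Veh (95% interval −1.12 to −0.10, adjusted p = 0.111) and −0.62 against Control + Veh (−1.12 to −0.11, adjusted p = 0.0796). Without replicate 4 these became −0.80 (adjusted p = 0.0244) and −0.81 (adjusted p = 0.0154). Over all 8 fits without 1 sample they ran from −0.80 to −0.405 (adjusted p up to 0.254) and from −0.81 to −0.41 (up to 0.176). Against CT2A + RT-TMZ + Veh, Kcnj10 in the CT2A + RT-TMZ + UCI-191 EV group was 0.69 higher (0.11 to 1.28, adjusted p = 0.148) and in the CT2A + RT-TMZ + Shef6 EV group 0.68 higher (0.12 to 1.24, adjusted p = 0.112). Without replicate 4 of the vehicle group the adjusted p of these was 0.0444 and 0.0255. Over all 7 fits without 1 sample the differences ran from 0.49 to 0.88 (adjusted p up to 0.351) and from 0.48 to 0.87 (up to 0.257).

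The oligodendrocyte genes of the panel moved with Kcnj10. Their summed level, over 11 of a list of 20 that were measured and none of which was under background, was 12.60 to 14.56 in CT2A + RT-TMZ + Veh and 13.82 to 14.86 in the other 6 groups. The lowest sum, 12.60, belonged to CT2A + RT-TMZ + Veh replicate 2, which was also the lowest of all 24 samples for Kcnj10 (10.15), Sox9, Slc1a3, Gja1 and S100b. The next sums were 13.82 in Control + Veh replicate 4, with Kcnj10 at 11.13, and 13.89 in CT2A + RT-TMZ + Veh replicate 1, with Kcnj10 at 10.68. Replicate 3 of CT2A + RT-TMZ + Veh had Kcnj10 at 10.90 and an oligodendrocyte sum of 14.55, inside the range of the other groups. None of the 11 oligodendrocyte genes passed a test in any of the 15 comparisons. Their part in the Kcnj10 values was not tested.

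**Figure D2:**
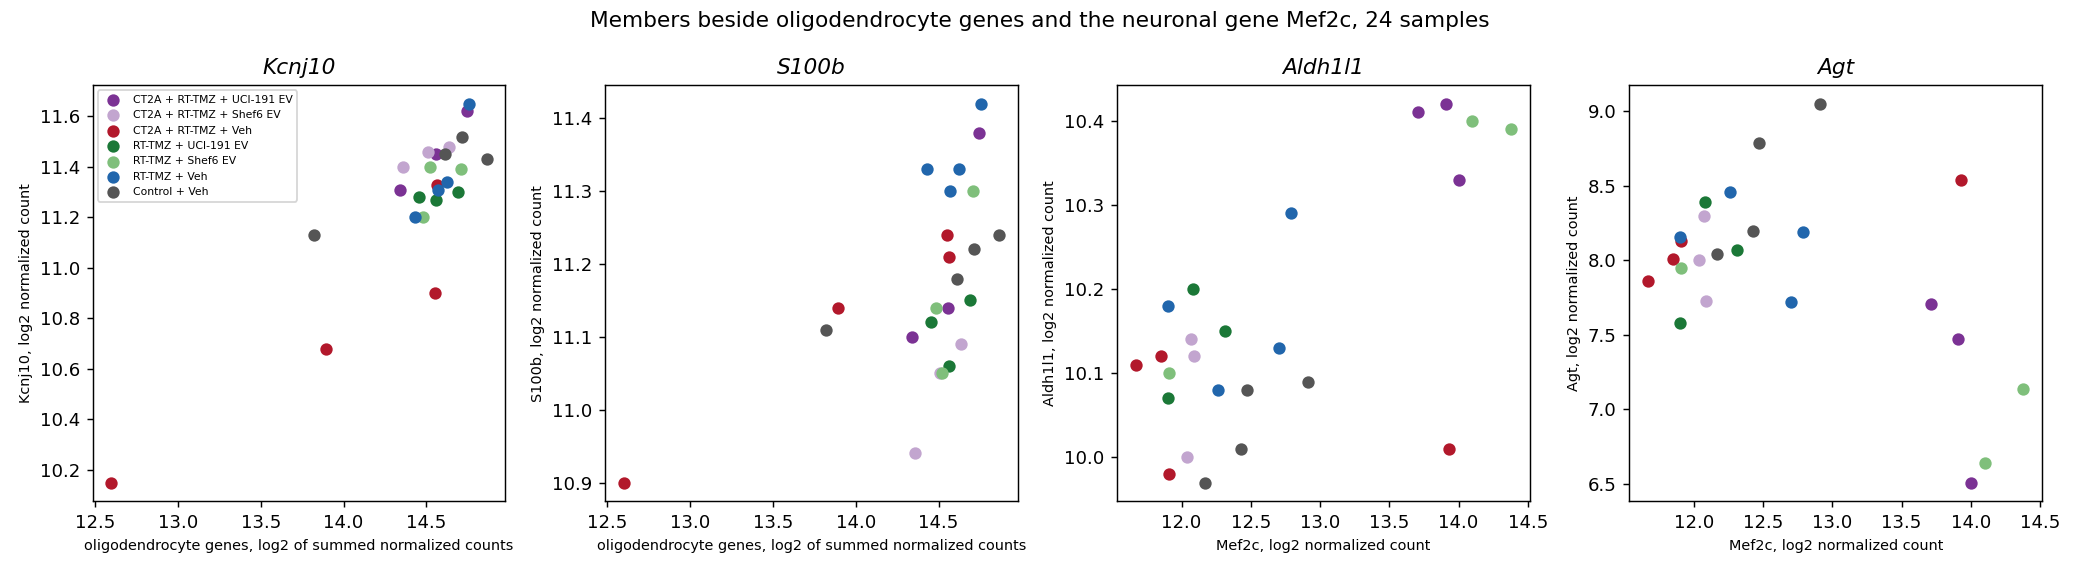
Kcnj10 and S100b against the summed level of 11 oligodendrocyte genes (log2 of summed normalized counts), and Aldh1l1 and Agt against Mef2c (log2 normalized count), 1 point per sample, coloured by group. The CT2A + RT-TMZ + Veh sample with an oligodendrocyte sum of 12.60 is lowest for Kcnj10 and S100b, and the 6 samples with Mef2c at 13.71 or more hold the 5 highest Aldh1l1 values and the 4 lowest Agt values.

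Aldh1l1, the folate enzyme, was high in 2 of the EV groups. It measured 10.41, 10.42 and 10.33 in CT2A + RT-TMZ + UCI-191 EV, 10, 10.14 and 10.12 in CT2A + RT-TMZ + Shef6 EV, and 10.11, 10.01, 9.98 and 10.12 in CT2A + RT-TMZ + Veh. Among tumor-free mice it measured 10.07, 10.15 and 10.20 in RT-TMZ + UCI-191 EV, 10.39, 10.40 and 10.10 in RT-TMZ + Shef6 EV, and 10.13, 10.29, 10.18 and 10.08 in RT-TMZ + Veh. Control + Veh gave 10.08, 9.97, 10.01 and 10.09. The CT2A + RT-TMZ + UCI-191 EV samples lay above all samples of both other tumor-bearing groups and of Control + Veh, and RT-TMZ + Shef6 EV was split, with 2 samples as high and 1 at the level of its vehicle group. Aldh1l1 averaged 10.39 ± 0.05 (SD, n = 3) in CT2A + RT-TMZ + UCI-191 EV, against 10.04 ± 0.06 (n = 4) in Control + Veh, a rise of 0.35 (standard error 0.05, adjusted p = 0.0115), or 27.4%, kept in all 7 fits without 1 sample. With the scaling factor divided out it was 0.12 (adjusted p = 0.346). Aldh1l1 was also 0.30 higher than in CT2A + RT-TMZ + Shef6 EV (10.09 ± 0.08, n = 3, adjusted p = 0.0387), a call that was kept in 1 of 6 such fits, that without CT2A + RT-TMZ + UCI-191 EV replicate 3. Against its own vehicle group the difference was 0.33 (95% interval 0.14 to 0.52, adjusted p = 0.0736), and CT2A + RT-TMZ + Veh did not differ from Control + Veh beyond an interval of −0.14 to 0.17.

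Agt, the angiotensin precursor, had the widest range and the largest spread within groups. Its values were 7.71, 7.47 and 6.51 in CT2A + RT-TMZ + UCI-191 EV, 8, 8.30 and 7.73 in CT2A + RT-TMZ + Shef6 EV, and 7.86, 8.54, 8.13 and 8.01 in CT2A + RT-TMZ + Veh. RT-TMZ + UCI-191 EV gave 7.58, 8.07 and 8.39, RT-TMZ + Shef6 EV 7.14, 6.64 and 7.95, and RT-TMZ + Veh 7.72, 8.19, 8.16 and 8.46. Control + Veh gave 8.79, 8.04, 8.20 and 9.05. The same 2 EV groups that were high for Aldh1l1 were low for Agt, with the same RT-TMZ + Shef6 EV sample, replicate 3, apart from its group. Agt averaged 7.23 ± 0.64 (SD, n = 3) in CT2A + RT-TMZ + UCI-191 EV, against 8.52 ± 0.48 (n = 4) in Control + Veh, a difference of −1.29 (standard error 0.34, adjusted p = 0.0460). That call was lost in 6 of 7 fits without 1 sample (adjusted p 0.052 to 0.121) and kept only without CT2A + RT-TMZ + UCI-191 EV replicate 1. RT-TMZ + Shef6 EV was lower than Control + Veh by a similar amount, −1.28 (95% interval −2.10 to −0.45, adjusted p = 0.0849), which became −1.63 without its replicate 3 (adjusted p = 0.0141). Against the groups' own vehicles the differences were −0.91 in CT2A + RT-TMZ + UCI-191 EV (−1.61 to −0.20, adjusted p = 0.124) and −0.89 in RT-TMZ + Shef6 EV (−1.60 to −0.18, adjusted p = 0.401).

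Mef2c, a transcription factor gene of neurons, varied with these 2 genes. It lay between 13.71 and 14.38 in 6 samples, namely all 3 of CT2A + RT-TMZ + UCI-191 EV, replicates 1 and 2 of RT-TMZ + Shef6 EV and replicate 2 of CT2A + RT-TMZ + Veh, and between 11.67 and 12.91 in the other 18. The first 5 of those samples held the 5 highest Aldh1l1 values and the 4 lowest Agt values of the series. CT2A + RT-TMZ + Veh replicate 2, with Mef2c at 13.93, had Aldh1l1 at 10.01 and Agt at 8.54, and that Agt value was the highest of its group. Over 18 of 32 neuron genes that were measured, none under background, the summed level was 17.16 to 17.19 in CT2A + RT-TMZ + UCI-191 EV, 16.99 to 17.23 in RT-TMZ + Shef6 EV and 17.03 to 17.14 in Control + Veh. It was 17.08 to 17.32 in CT2A + RT-TMZ + Veh and 16.93 to 17.14 in the remaining groups. The highest sum of all, 17.32, was that of CT2A + RT-TMZ + Veh replicate 2. RT-TMZ + Shef6 EV replicate 3 was at the low end of its group, 16.99, with Mef2c at 11.91. All samples of CT2A + RT-TMZ + UCI-191 EV had high Mef2c, so the 2 cannot be told apart in that group. The part of Mef2c or of neuron content in the Aldh1l1 and Agt values was not tested.

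S100b, the calcium-binding protein, had the smallest span between groups. It measured 11.10, 11.14 and 11.38 in CT2A + RT-TMZ + UCI-191 EV, 11.05, 11.09 and 10.94 in CT2A + RT-TMZ + Shef6 EV, and 11.14, 10.90, 11.24 and 11.21 in CT2A + RT-TMZ + Veh. In tumor-free mice it measured 11.15, 11.12 and 11.06 with UCI-191 EV, 11.05, 11.30 and 11.14 with Shef6 EV, and 11.33, 11.30, 11.33 and 11.42 with vehicle after RT-TMZ. Control + Veh gave 11.18, 11.24, 11.22 and 11.11. The 4 RT-TMZ + Veh samples lay above the 4 Control + Veh samples without overlap. S100b averaged 11.35 ± 0.05 (SD, n = 4) in RT-TMZ + Veh and 11.19 ± 0.06 (n = 4) in Control + Veh, a rise of 0.16 (standard error 0.04, adjusted p = 0.0373), or 11.5%. The call was lost in 5 of 8 fits, without replicates 1, 3 or 4 of Control + Veh or 3 or 4 of RT-TMZ + Veh (adjusted p 0.0667 to 0.0972), and also when the samples were scaled in any of 3 other ways (adjusted p 0.188 to 0.498). RT-TMZ + UCI-191 EV lay below RT-TMZ + Veh in every sample, at −0.23 (95% interval −0.34 to −0.13), with an adjusted p of 0.499.

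Counts by comparison are read against the share of all probes that passed. In RT-TMZ + Veh minus Control + Veh 2 of the 7 passed, S100b up and Slc1a3 down, where 17.8% of all probes passed. The median difference of the 7 genes was −0.01 and that of all probes 0.05. Adding the tumor, CT2A + RT-TMZ + Veh minus RT-TMZ + Veh, 3 of 7 fell (Sox9, Gja1 and Slc1a3) and none rose, with 10.6% of all probes passing and 8.72% falling, and the medians were −0.33 for the 7 genes and −0.14 for all probes. In CT2A + RT-TMZ + Veh minus Control + Veh the same 3 fell, with 21.1% of all probes passing and 13.3% falling, and the medians were −0.45 and −0.06. Each EV group against Control + Veh gave 4 of 7 in CT2A + RT-TMZ + UCI-191 EV (background 13.1%), 3 in CT2A + RT-TMZ + Shef6 EV (18%), 1 in RT-TMZ + UCI-191 EV (21%) and 2 in RT-TMZ + Shef6 EV (5.42%). These comparisons share their Control + Veh samples.

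**Figure D3:**
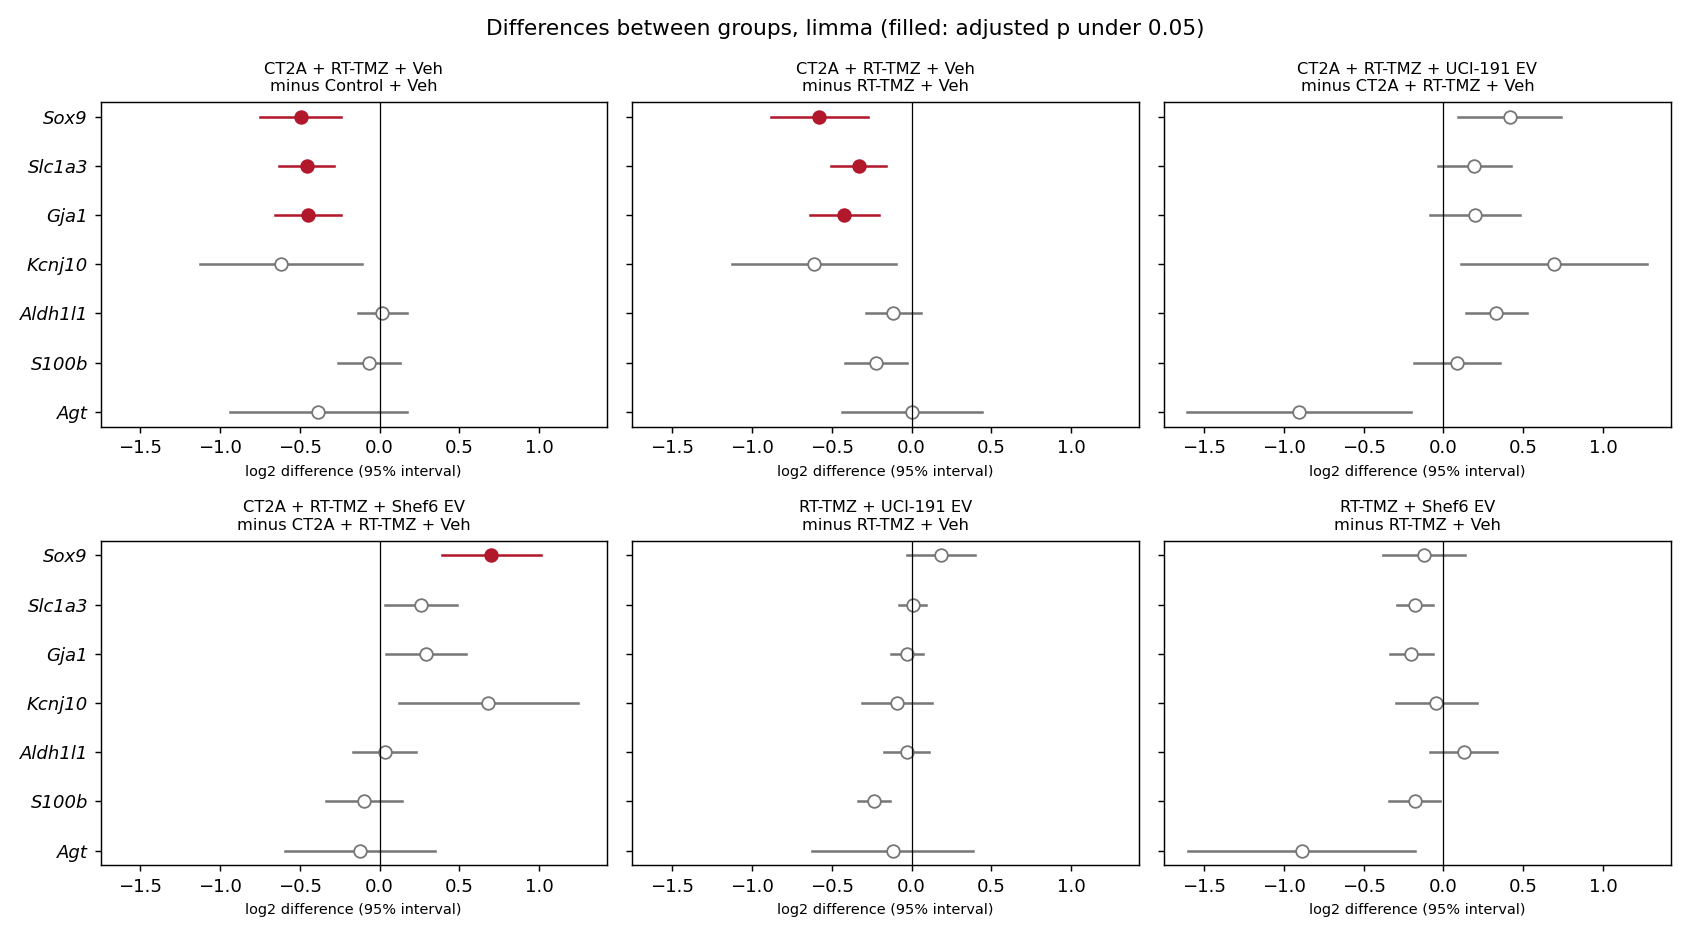
Log2 differences of the 7 genes with 95% intervals in 6 comparisons, the first-named group minus the second, from limma. Filled points passed an adjusted p under 0.05, which Sox9, Slc1a3 and Gja1 did in both comparisons of CT2A + RT-TMZ + Veh and Sox9 alone did in CT2A + RT-TMZ + Shef6 EV minus CT2A + RT-TMZ + Veh.

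EVs in tumor-free mice moved none of the 7 past the threshold. Neither RT-TMZ + UCI-191 EV nor RT-TMZ + Shef6 EV differed from RT-TMZ + Veh in any of the 757 probes by limma, a background of 0% in each. At an unadjusted p under 0.05 there were 15 probes that were higher and 30 that were lower with UCI-191 EV, and 20 and 72 with Shef6 EV, among them 1 and 4 of the 7 genes, all lower, and the methods' t-test called 0 of the 7 in both. The 4 with Shef6 EV were Gja1 (−0.20, 95% interval −0.33 to −0.07), Slc1a3 (−0.18, −0.29 to −0.07), S100b (−0.18, −0.34 to −0.02) and Agt (−0.89, −1.60 to −0.18), with adjusted p between 0.388 and 0.404. S100b passed in none of the 7 fits without 1 sample (lowest adjusted p 0.223). Gja1, Slc1a3 and Agt each passed in 1 of these 7 fits, that without replicate 3 of RT-TMZ + Shef6 EV. In that fit Gja1 gave −0.24 (adjusted p = 0.0389), Slc1a3 −0.21 (0.0337) and Agt −1.24 (0.0172), and over the panel 34 probes rose and 39 fell. The 2 EV groups did not differ from each other in any probe either (0%, where an unadjusted p under 0.05 was reached by 59 that were higher and 24 that were lower), with Sox9 0.30 higher in RT-TMZ + UCI-191 EV than in RT-TMZ + Shef6 EV (95% interval 0.10 to 0.51, adjusted p = 0.443). Without that same replicate 4 of the 7 rose and 1 fell, with 49 probes rising and 54 falling over the panel. Sox9 then gave 0.35 (adjusted p = 0.0453), Gja1 0.21 (0.0194) and Slc1a3 0.22 (0.0133).

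Among tumor-bearing mice the differences from vehicle depended on the scaling of the samples. In CT2A + RT-TMZ + Shef6 EV minus CT2A + RT-TMZ + Veh 5 of the 7 were higher as deposited, 3 with median centring and all 7 with the factor divided out, and Sox9 passed as deposited. The median difference was 0.26 for the 7 genes and 0.10 for all probes. Gja1 (0.29, 95% interval 0.04 to 0.54, adjusted p = 0.123) and Slc1a3 (0.26, 0.04 to 0.49, adjusted p = 0.121) did not. In CT2A + RT-TMZ + UCI-191 EV minus CT2A + RT-TMZ + Veh 6 of the 7 were higher as deposited, 5 with median centring, and none passed as deposited, where 1.45% of all probes did. The medians were 0.20 and 0.09. Before adjustment 3 of the 7 were higher and 1, Agt, lower at p under 0.05, as were 128 and 60 of all probes, and the methods' t-test called 0. With all 7 groups sharing 1 estimate of spread, 4 genes passed in the Shef6 comparison, where 170 of the 757 probes rose and 67 fell, and 5 in the UCI-191 comparison, where 147 rose and 70 fell. Directly, CT2A + RT-TMZ + UCI-191 EV minus CT2A + RT-TMZ + Shef6 EV gave 1 of 7, Aldh1l1, with 6.61% of all probes passing.

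In the values as deposited, the Shef6 EV effect differed between mice with and without a tumor for 3 genes. The test subtracts RT-TMZ + Shef6 EV minus RT-TMZ + Veh from CT2A + RT-TMZ + Shef6 EV minus CT2A + RT-TMZ + Veh. It gave 0.82 for Sox9 (standard error 0.18, adjusted p = 0.0240), 0.49 for Gja1 (standard error 0.12, adjusted p = 0.0390) and 0.44 for Slc1a3 (standard error 0.11, adjusted p = 0.0347), where 6.08% of all probes passed. With samples centred on their medians none of them passed, at 0.48 (adjusted p = 0.0594), 0.15 (0.437) and 0.10 (0.673). As deposited, the EV group lay in each gene above its vehicle with a tumor and below it without, by 0.70 and −0.12 for Sox9, 0.29 and −0.20 for Gja1, and 0.26 and −0.18 for Slc1a3. Kcnj10 gave 0.73 (95% interval 0.10 to 1.35, adjusted p = 0.116). Genes of other cell types moved in the same test. Of 9 endothelial genes 7 passed upward (median 1.04, all probes 0.17), and all 11 oligodendrocyte genes were higher with none passing (median 0.69). In CT2A + RT-TMZ + Shef6 EV minus CT2A + RT-TMZ + Veh 8 of the 9 endothelial genes rose. Their part in the values of Sox9, Gja1 and Slc1a3 was not tested. For UCI-191 EV no gene of the 7 passed (background 1.85%), and before adjustment 3 were higher at p under 0.05, as were 105 of all probes, with 45 lower. The 3 were Aldh1l1 (0.36, adjusted p = 0.0678), Kcnj10 (0.79, adjusted p = 0.149) and S100b (0.32, adjusted p = 0.165). Fits without 1 sample lost the Shef6 call in 8 of 14 for Sox9, 10 of 14 for Gja1 and 10 of 14 for Slc1a3 (adjusted p up to 0.076, 0.108 and 0.108), with differences that stayed within 0.73 to 0.91, 0.40 to 0.55 and 0.40 to 0.51. The fits that kept all 3 calls included the one without CT2A + RT-TMZ + Veh replicate 2.

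The comparisons with CT2A + RT-TMZ + Veh, the group with the largest scaling factors, shifted most with the scaling of the samples. In CT2A + RT-TMZ + Veh minus RT-TMZ + Veh the median of all 757 probes was −0.14 as deposited, 0.13 with samples centred on their medians and −0.70 with the factor divided out. Relative to the median of all probes in the same scaling, Sox9 was −0.44, Gja1 −0.28, Slc1a3 −0.19 and Kcnj10 −0.47 as deposited, and −0.36, −0.51, −0.45 and −0.50 after quantile normalization. Median centring and division by the factor shift all probes of a sample alike, so by construction they leave these relative values as they are. As deposited, S100b was −0.08 and Aldh1l1 0.02 on that basis. Against Control + Veh the values relative to the median were −0.44 for Sox9, −0.39 for Gja1 and −0.40 for Slc1a3. Calls did depend on the scaling. Over all probes 14 rose and 66 fell against RT-TMZ + Veh as deposited, with 2 and 17 after median centring, 30 and 30 after quantile normalization, and 0 and 607 with the factor divided out. Against Control + Veh 59 rose and 101 fell as deposited, with 107 and 40, 69 and 59, and 3 and 540 under the same settings. With median centring none of the 7 passed against RT-TMZ + Veh, and against Control + Veh 1 did, Sox9. Members of the endothelial list, another group of cells, were low in the same samples, with a summed level over 9 measured genes of 11.03 to 11.40 in CT2A + RT-TMZ + Veh and 11.78 to 12.33 in the other 6 groups, 7 of 9 falling against RT-TMZ + Veh. Neither their part nor that of the scaling in the falls of Sox9, Gja1 and Slc1a3 was tested.

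**Figure D4:**
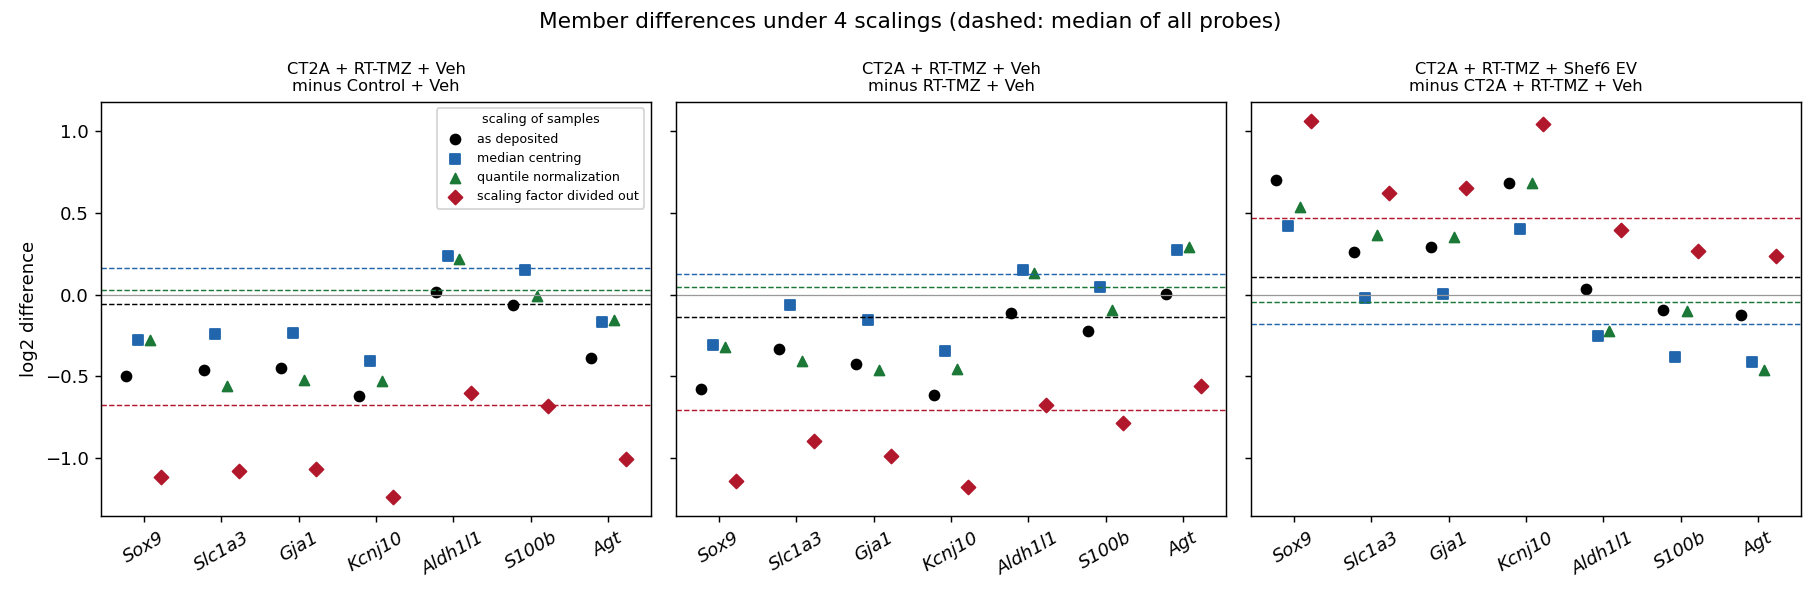
Log2 differences of the 7 genes (vertical axis) in 3 comparisons with CT2A + RT-TMZ + Veh under 4 scalings of the samples, with the median of all 757 probes under each scaling as a dashed line of the same colour. Apart from quantile normalization, the points of a scaling shift together with its dashed line, and Sox9 and Kcnj10 stay on the same side of zero in all 4 scalings of each comparison.

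The 7 genes did not vary as 1 unit. Within groups, as deviations of the 24 samples from their group means, Gja1 went with Sox9 (Pearson r = 0.74) and Slc1a3 (0.72), and Slc1a3 with Sox9 (0.65). S100b went with Kcnj10 (0.72) and against Agt (−0.54). Aldh1l1 had r of 0.17 with Gja1 and 0.01 with Slc1a3. These are descriptions over samples that share a panel and a scaling, without a test. Of 624 other probes above background, those most alike to Kcnj10 were Ugt8a (0.92), Myrf (0.92) and Plxnb3 (0.91), and those most alike to S100b were Erbb3 (0.84), Enpp6 (0.83) and Mbd2 (0.82). Ugt8a makes a myelin lipid and Myrf is a transcription factor of myelination. With the summed oligodendrocyte level, r was 0.89 for Kcnj10, 0.79 for S100b, 0.59 for Sox9, 0.54 for Gja1, 0.33 for Slc1a3, −0.02 for Aldh1l1 and −0.42 for Agt.

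The remaining genes had other neighbours. Nearest to Gja1 were Csf1 (0.87), Il1r1 (0.85) and Il6ra (0.85), and nearest to Slc1a3 were Il6ra (0.82), Gja1 (0.72) and Kit (0.71). Sox9 was nearest to Mr1 (0.86), Trp53bp2 (0.85) and Itgb5 (0.84). Aldh1l1 was nearest to Fos (0.69), Arc (0.63) and Timeless (0.55), the first 2 of which are immediate early genes, switched on by neuronal activity. Agt was nearest to Gdpd2 (0.74), Chst8 (0.73) and Cd44 (0.70).

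Other genes of astrocytes were few on the panel. Of a further list of 36, 5 were measured, namely Grm3, Apoe, Egfr, Entpd2 and Nwd1. Grm3, a glutamate receptor that lowers cyclic AMP, fell in RT-TMZ + Veh against Control + Veh (−0.28, adjusted p = 0.0149) and in CT2A + RT-TMZ + Veh (−0.53, adjusted p = 0.0325). Against Control + Veh it also fell in RT-TMZ + UCI-191 EV (−0.39, adjusted p = 0.0046) and CT2A + RT-TMZ + Shef6 EV (−0.43, adjusted p = 0.0080). It averaged 11.81 ± 0.37 (SD, n = 3) with UCI-191 EV in tumor-bearing mice, 11.45 ± 0.65 (n = 3) with Shef6 EV in tumor-free mice and 11.28 ± 0.06 (n = 4) in Control + Veh, with samples of RT-TMZ + Shef6 EV running from 10.70 to 11.92. In CT2A + RT-TMZ + UCI-191 EV it rose by 0.96 over CT2A + RT-TMZ + Shef6 EV (adjusted p = 0.0333), and the 3 CT2A + RT-TMZ + UCI-191 EV samples are also among those with high Mef2c. Apoe, the lipid carrier that microglia also make, rose in RT-TMZ + Veh (0.32, adjusted p = 0.0055) and in CT2A + RT-TMZ + Veh (0.26, adjusted p = 0.0409) against Control + Veh. It rose by 0.41 in RT-TMZ + UCI-191 EV (adjusted p = 0.00035), while in CT2A + RT-TMZ + UCI-191 EV the difference was −0.18 (adjusted p = 0.0581). Egfr, a growth factor receptor, fell in CT2A + RT-TMZ + Veh against Control + Veh (−0.43, adjusted p = 0.0427). Against Control + Veh, Entpd2 fell in CT2A + RT-TMZ + UCI-191 EV (−0.405, adjusted p = 0.0218) and Nwd1 rose in CT2A + RT-TMZ + Shef6 EV (0.26, adjusted p = 0.0227). The UCI-191 EV effect differed between mice with and without a tumor for Grm3 (1.17) and Apoe (−0.54, adjusted p = 0.0376 for both).

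Genes of reactive astrocytes were counted in the same comparisons. Of a list of 36, 28 were measured and 3 averaged under background. In RT-TMZ + Veh minus Control + Veh 11 of the 28 rose and none fell, with a median of 0.54, while 12.2% of all probes rose and the median of all was 0.05. In CT2A + RT-TMZ + Veh minus RT-TMZ + Veh 6 fell and none rose, where 8.72% of all probes fell (median −0.40, and −0.14 over all probes). CT2A + RT-TMZ + Shef6 EV minus CT2A + RT-TMZ + Veh gave 2 that rose, with 28 of 757 over the panel, and a median of 0.42, and CT2A + RT-TMZ + UCI-191 EV minus CT2A + RT-TMZ + Veh none and a median of −0.12. The list was chosen with earlier results of these samples known, so its counts are no independent evidence of a direction.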

How the data were processed

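The deposited values are log2 normalized counts of 757 probes of a NanoString nCounter Mouse Neuroinflammation panel in 24 samples. Before taking log2, the authors scaled each sample's counts by its positive controls and by 13 reference genes, which were not analysed here. Scaling factors and implied total counts were recovered from the grid of low values, with a count taken as whole within 0.15. For each comparison a separate limma model (limma 3.58.1 under R 4.3.3, trend on the mean, two-sided moderated test) took its groups only, with Benjamini-Hochberg adjustment across the 757 probes and a threshold of 0.05. The code was first tested on simulated data. Each sample is a separate mouse by the labels, and the tests set each difference against the spread between these mice.

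The 7 genes and all gene lists were chosen with earlier results of these data known. Every one of the 7 is described in every group. Further genes were named by rule: of other astrocyte genes at most 5, those past the threshold most often, and for likeness the 3 probes with the highest Pearson r of within-group deviations. Figures used Python 3.11.15 with pandas 2.3.3 and matplotlib 3.10.9.

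Alternatives were 3 other scalings, a pseudocount of 20, a limit of 20 normalized counts, 1 model of all groups, no mean trend, the t-test of the methods, the replicate number as a block, and each sample left out. Samples with the same number deviated together (r over 0.1 in every pair) in 1 of 13 comparisons, RT-TMZ + Shef6 EV with RT-TMZ + Veh (r 0.32 to 0.58), a hint from the data and not the labels.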

Additional observations from a re-analysis of the deposited data

Results flagged for a closer look

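In RT-TMZ + Veh, Gja1 was 12.80 in replicate 1 and 12.92 to 12.94 in the other 3 samples, a gap of 0.857 of the group's range, above Dixon's limit for 4 samples. Of 21 sets of 4 values tested in this way 1 passed, and chance alone passes about 1 in 20.

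The Shef6 EV effect in CT2A-bearing minus tumor-free mice differed from 0 by limma's interaction test for Sox9 (0.82, adjusted p = 0.0240), Gja1 (0.49, adjusted p = 0.0390) and Slc1a3 (0.44, adjusted p = 0.0347). With samples centred on their medians these were 0.48 (adjusted p = 0.0594), 0.15 (0.437) and 0.10 (0.673). CT2A + RT-TMZ + Veh, with the largest scaling factors, enters all 3.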

How the results depend on the processing

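Of 23 calls the text gives for single genes among the 7, 20 were lost in at least 1 fit that left out 1 sample, and the other 3 were kept in all. These were Slc1a3 in CT2A + RT-TMZ + Veh, Sox9 in RT-TMZ + UCI-191 EV and Aldh1l1 in CT2A + RT-TMZ + UCI-191 EV, each against Control + Veh. The calls of Grm3, Apoe, Egfr, Entpd2 and Nwd1 were not refitted without a sample or under other settings. The calls kept numbered 23 with probes above background alone, 21 with a pseudocount of 20, 17 with quantile normalization, 17 with the scaling factor divided out, 15 with all groups in 1 fit, 8 without the mean trend, 8 with the replicate block, 6 with median centring and, of the 20 it could test, 1 with the methods' t-test. Directions turned in 3 cases. S100b in CT2A + RT-TMZ + Veh minus RT-TMZ + Veh was 0.045 and Slc1a3 in CT2A + RT-TMZ + Shef6 EV minus CT2A + RT-TMZ + Veh −0.0242 with median centring, and Sox9 in CT2A + RT-TMZ + Shef6 EV minus Control + Veh was −0.0525 with the factor divided out. Fits without 1 sample hold fewer samples, and the causes of these changes were not tested.

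Counts of the 7 genes called moved as follows. RT-TMZ + Veh minus Control + Veh gave 2, 1 with the pseudocount and 0 under median centring, quantile normalization, the factor divided out, 1 fit of all groups, the t-test, no trend and the replicate block (0 to 1 without 1 sample). CT2A + RT-TMZ + Veh minus RT-TMZ + Veh gave 3, 7 with the factor divided out, 5 with all groups in 1 fit and 0 with median centring, the t-test, no trend and the block (0 to 4 without 1 sample). Against Control + Veh it gave 3, 7 with the factor divided out, 1 with median centring and with the block, and 0 with the t-test (1 to 4). CT2A + RT-TMZ + Shef6 EV minus its vehicle gave 1, 5 with the factor divided out, 4 in 1 fit and 0 with median centring and the t-test (0 to 3). For CT2A + RT-TMZ + UCI-191 EV the comparison with its vehicle gave 0, 6 and 5 under the first 2 of these (0 to 3). RT-TMZ + Shef6 EV against RT-TMZ + Veh gave 0 in all settings, the block included (0 to 3 without 1 sample), RT-TMZ + UCI-191 EV against RT-TMZ + Veh 0 throughout, and RT-TMZ + UCI-191 EV minus RT-TMZ + Shef6 EV 0 (0 to 5, the 5 without RT-TMZ + Shef6 EV replicate 3). Against Control + Veh, RT-TMZ + Shef6 EV gave 2, 1 with quantile normalization and no trend and 0 with median centring, the t-test and the block (0 to 4). RT-TMZ + UCI-191 EV gave 1, 4 with median centring, 2 above background and with the block, and 0 in 1 fit and with the t-test (1 to 2). CT2A + RT-TMZ + Shef6 EV gave 3 and 0 in 1 fit, with the t-test, no trend and the block (0 to 3). CT2A + RT-TMZ + UCI-191 EV gave 4, 2 with median centring and the block, and 1 with the t-test and no trend (1 to 4), and minus CT2A + RT-TMZ + Shef6 EV it gave 1 and 0 with the factor divided out, the t-test, no trend and the block (0 to 1). The Shef6 EV effect between mice with and without tumor gave 3, 6 with the factor divided out, 1 without the trend and 0 with median centring (0 to 4), and the UCI-191 EV effect gave 0, 6 with the factor divided out and 1 in 1 fit (0 to 2). Over all probes, 318 rose and 1 fell for the Shef6 EV effect with the factor divided out, and 215 and 0 for UCI-191 EV. The F test passed 5 to 7 of the 7 genes in all settings and without any 1 sample. Elsewhere the replicate numbers did not pair the samples (r −0.54 to 0.29), and the block changed no other count by over 1.5 times. Agt, with the fewest counts, had the largest counting error at its lowest value (10.8%), and its pooled SD within groups was 0.45.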
